A study of Triticum turgidum subsp. durum with 20 samples.

Results

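The step in durum wheat spike development at which the lemma primordium appears (Waddington stage W3.25) was compared with the stage before it, at which the glume primordium is present (W3.0). The comparison takes 8 of the 20 libraries of the series, 4 at W3.25 and 4 at W3.0, which were chosen by their stage labels alone. The remaining stages are the vegetative apex (W1), the double ridge (W2) and the terminal spikelet (W3.5). The study's results name W3.0 the glume primordium whereas its methods name it double ridge, so the stages are given here by their Waddington number.

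By their labels the 2 groups differed only in stage. Both came from the tetraploid cultivar Kronos (genomes AABB). It is a spring wheat, owing to VRN-A1 lacking part of intron 1, and responds only weakly to day length because of Ppd-A1a. Plants were grown in 16 h of light at 23 °C and 8 h of dark at 17 °C. About 12 dissected apices were pooled for each biological replicate, about 4 h after the lights came on. A pooled apex holds the meristem, the organ primordia and the young axis at once, so that fewer cells of a type and less RNA per cell cannot be told apart in any value below. Later apices also carry more spikelets and more advanced ones, and the age of an apex cannot be told apart from the presence of a lemma.

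In grasses each spikelet opens with a pair of sterile bracts, the glumes, and then forms florets, each of which is subtended by a lemma. The floret in turn makes a palea, lodicules, stamens and a carpel. The identity of these organs is set largely by MADS-box transcription factors, while other families (SPL, YABBY, TCP and NF-Y among them) act in meristem fate, organ polarity and the timing of the transition. Hexaploid reference gene identifiers are used below (IWGSC annotation, prefix TraesCS), in which A or B after the chromosome number gives the genome and the ending LC marks a low-confidence model.

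Library totals lay between 22980323 and 29528273 counts at W3.25 and between 23667677 and 26753375 counts at W3.0. Profiles of pairs of libraries correlated at r = 0.986 to 0.991 within a stage (12 pairs) and at r = 0.981 to 0.988 between the stages (16 pairs), over gene models that are not independent replicates. The first principal component took 28.5% of the variance and averaged 26.2 ± 8.78 in W3.25 libraries and -26.2 ± 9.12 in W3.0 libraries (SD, n = 4 each). All W3.25 scores lay above all W3.0 scores, and the exact two-sided permutation test gave p = 0.0286, the smallest that 4 libraries against 4 can give. As a check on the tissue, AP1-B1, a meristem identity gene of the AP1 group, stood at 25.7 ± 1.46 TPM in W3.25 libraries and 24.3 ± 1.504 TPM in W3.0 libraries. LFY stood at 25.3 ± 0.926 TPM at W3.25 and 29.0 ± 1.70 TPM at W3.0. The copies of the putative stem cell peptide gene CLV3 were low, the 2A copy at 3.82 ± 0.670 TPM at W3.25 and 4.73 ± 0.909 TPM at W3.0, and the 2B copy at 0.939 ± 0.371 TPM at W3.25 and 1.53 ± 0.536 TPM at W3.0. Transcripts of photosynthetic tissue were present at both stages. Photosystem I subunit IV stood at 47.7 ± 2.89 TPM (5A copy) and 50.6 ± 3.57 TPM (5B copy) at W3.25, against 43.7 ± 3.65 and 46.0 ± 4.55 TPM at W3.0 (SD, n = 4 libraries in each case), and neither copy passed the test. Their part in the results below was not tested.

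Of 44743 gene models with enough counts to be tested, 419 differed between the stages. They are called differentially expressed genes (DEGs) here, which required an adjusted p of at most 0.01 in edgeR's quasi-likelihood test and in DESeq2's Wald test, with the same direction in both. DEGs made up 0.936% of tested models, with 229 higher at W3.25 (0.512%) and 190 lower (0.425%). In 418 of the 419 the 4 W3.25 libraries and the 4 W3.0 libraries did not overlap, which held for 7.44% of all tested models. The rises were larger than the falls. The median log2 fold change was 0.87 for the DEGs that rose and -0.57 for those that fell, and the change was at least 2-fold in 92 of the 229 (40.2%) and in 43 of the 190 (22.6%). At least 4-fold changes numbered 33 rises and 10 falls. Over all tested models the median log2 fold change was -0.0012 and the median absolute one 0.086. The number of DEGs depended on single libraries: it was 217 without W3.25 replicate 4, 223 without W3.25 replicate 3 and 253 without W3.0 replicate 3. With each of the 8 libraries left out in turn, 181 DEGs (95 higher, 86 lower) were called every time, and 0 of the 419 changed sign.

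**Figure D1:**
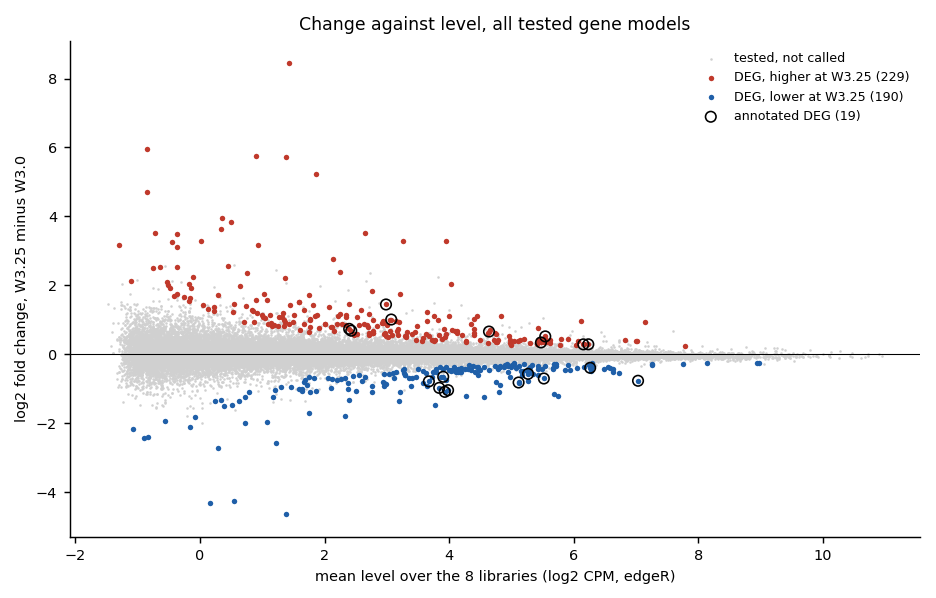
Log2 fold change (W3.25 minus W3.0, vertical axis) against the mean level over the 8 libraries (log2 CPM, horizontal axis) for each of the 44743 tested gene models. Red points are the 229 DEGs higher at W3.25, blue points the 190 lower, and open circles the 19 DEGs with a gene or family name. The largest changes sit at low levels, while the named DEGs lie between -1.09 and 1.44.

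Rising and falling DEGs sat at different levels. Genes that rose had a median of 8.39 TPM at W3.25 and 4.28 TPM at W3.0, whereas genes that fell had a median of 13.5 TPM at W3.25 and 20.0 TPM at W3.0. All tested models had medians of 6.05 TPM at W3.25 and 5.92 TPM at W3.0. Of the rising DEGs, 39 had a mean of at least 1 TPM at W3.25 and under 1 TPM at W3.0, and 15 of the falling DEGs had a mean under 1 TPM at W3.25 and of at least 1 TPM at W3.0. Low-confidence models were 6.99% of rising and 6.84% of falling DEGs, against 21.02% of all tested models. The share on the A genome was 46.3% and 47.9%, against 48.9% of tested models. The median gene span was 2579 bp for rising and 2666 bp for falling DEGs, against 3331 bp for all tested models. Spans overlapped another gene model, where reads of either gene can be lost, in 6.55% of rising and 3.16% of falling DEGs and in 11.4% of tested models.

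Names were available for 66 gene models, of which 65 were tested. These are the genes that the study's text gives with an identifier or that the readable part of its regulatory network labels. Genes that the text names without an identifier, AGL6 and SEP3 among them, are not on the list. Some of them may be among the gene models given below without a name, which was not determined. Since the study chose the network genes on these same samples, their counts are no independent evidence. Of the 65, 9 rose, 10 fell and 46 were not called, so that 29.2% were DEGs where 0.936% of all tested models were. Their median log2 fold change was -0.05. The model that could not be tested is WUSb, a copy of the stem cell regulator WUSCHEL, whose TPM was 0.0783 ± 0.0416 in W3.25 libraries (10 counts in all) and 0.267 ± 0.0920 in W3.0 libraries (33 counts in all; SD, n = 4). In the sentences below, library values are given in the order of replicates 1 to 4, the TPM of a gene uses its whole span as length, and log2 fold changes, standard errors (SE) and adjusted p-values are from edgeR's quasi-likelihood test.

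Among the groups of this list, the MADS-box genes had the most rises. Of the 7 members tested, 4 rose, 1 fell and 2 were not called. The list holds only a part of the MADS-box genes that the study describes. Gene models without a name here may belong to this family too, so the 7 do not give the extent of its changes. PI-A1 (TraesCS1A02G264300, chromosome 1A, 459946840 to 459948904) is a PISTILLATA gene, of the class that in Arabidopsis and rice specifies petals or lodicules and stamens. It measured 11.2, 15.7, 14.8 and 13.6 TPM at W3.25 and 7.01, 6.70, 6.21 and 7.14 TPM at W3.0. Every W3.25 library lay above every W3.0 library, and the log2 fold change was 1.01 (SE 0.11, adjusted p = 7.1e-05), a 2.01-fold rise. The PISTILLATA-like copy on 1B (TraesCS1B02G275000) measured 3.41, 4.32, 3.97 and 3.43 TPM at W3.25 and 2.31, 2.20, 1.99 and 2.44 TPM at W3.0, again with no overlap. It rose by 0.74 on the log2 scale (SE 0.12, adjusted p = 0.00172), was not called without W3.25 replicate 3 (adjusted p = 0.0101), and overlaps 2 other gene models, with which shared reads were not counted.

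MADS32-B1 (TraesCS3B02G318300) belongs to a clade known from grasses, and its rice member acts in floral organ identity. Its TPM was 29.4, 34.3, 30.7 and 33.3 at W3.25 and 25.04, 21.8, 18.2 and 14.6 at W3.0. The stages did not overlap, W3.0 libraries were the more scattered, and the log2 fold change was 0.66 (SE 0.11, adjusted p = 0.00293). This call was lost without any one of W3.0 replicates 2 and 3 and W3.25 replicates 1 to 4, where DESeq2's test failed each time (adjusted p = 0.0181 to 0.0649) and edgeR's adjusted p was 0.00497 to 0.0172. MADS32-A1 stood at a far higher level and was not called, with 141, 171, 142 and 155 TPM at W3.25 and 133, 128, 99.2 and 101 TPM at W3.0 (log2 fold change 0.38, SE 0.08, adjusted p = 0.0219). AP1-A3 (TraesCS2A02G261200), of the AP1 group that promotes meristem identity, had 28.5, 28.2, 29.0 and 30.2 TPM at W3.25 and 24.8, 24.1, 22.4 and 22.2 TPM at W3.0. That is a small difference with tight replicates, a 1.22-fold rise (log2 fold change 0.29, SE 0.05, adjusted p = 0.00194). Its call was lost without W3.0 replicate 3, W3.25 replicate 3 or W3.25 replicate 4 (adjusted p of up to 0.0127) and when all 20 libraries shared a fit (adjusted p = 0.0726). AP1-B1 was not called (log2 fold change 0.06, SE 0.05, adjusted p = 0.707).

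SVP-B2 (TraesCS7B02G080300) was the MADS-box gene of the list that fell. SVP represses the floral transition in Arabidopsis. For wheat, however, the study's introduction gives SVP1, VRT2 and SVP3 a promoting role in the change to an inflorescence meristem. SVP-B2 measured 13.4, 12.4, 14.1 and 14.3 TPM at W3.25 and 16.4, 19.6, 21.2 and 21.9 TPM at W3.0, without overlap, and fell by 0.57 on the log2 scale (SE 0.08, adjusted p = 0.000419), a call kept with each library left out. LFY (TraesCS2B02G464200), a floral identity regulator in Arabidopsis that acts in panicle branching in rice, had 24.8, 26.1, 24.2 and 26.02 TPM at W3.25 and 29.5, 27.1, 28.4 and 31.1 TPM at W3.0. Its libraries did not overlap, yet the difference of -0.22 on the log2 scale (SE 0.05, adjusted p = 0.0470) missed the threshold.

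**Figure D2:**
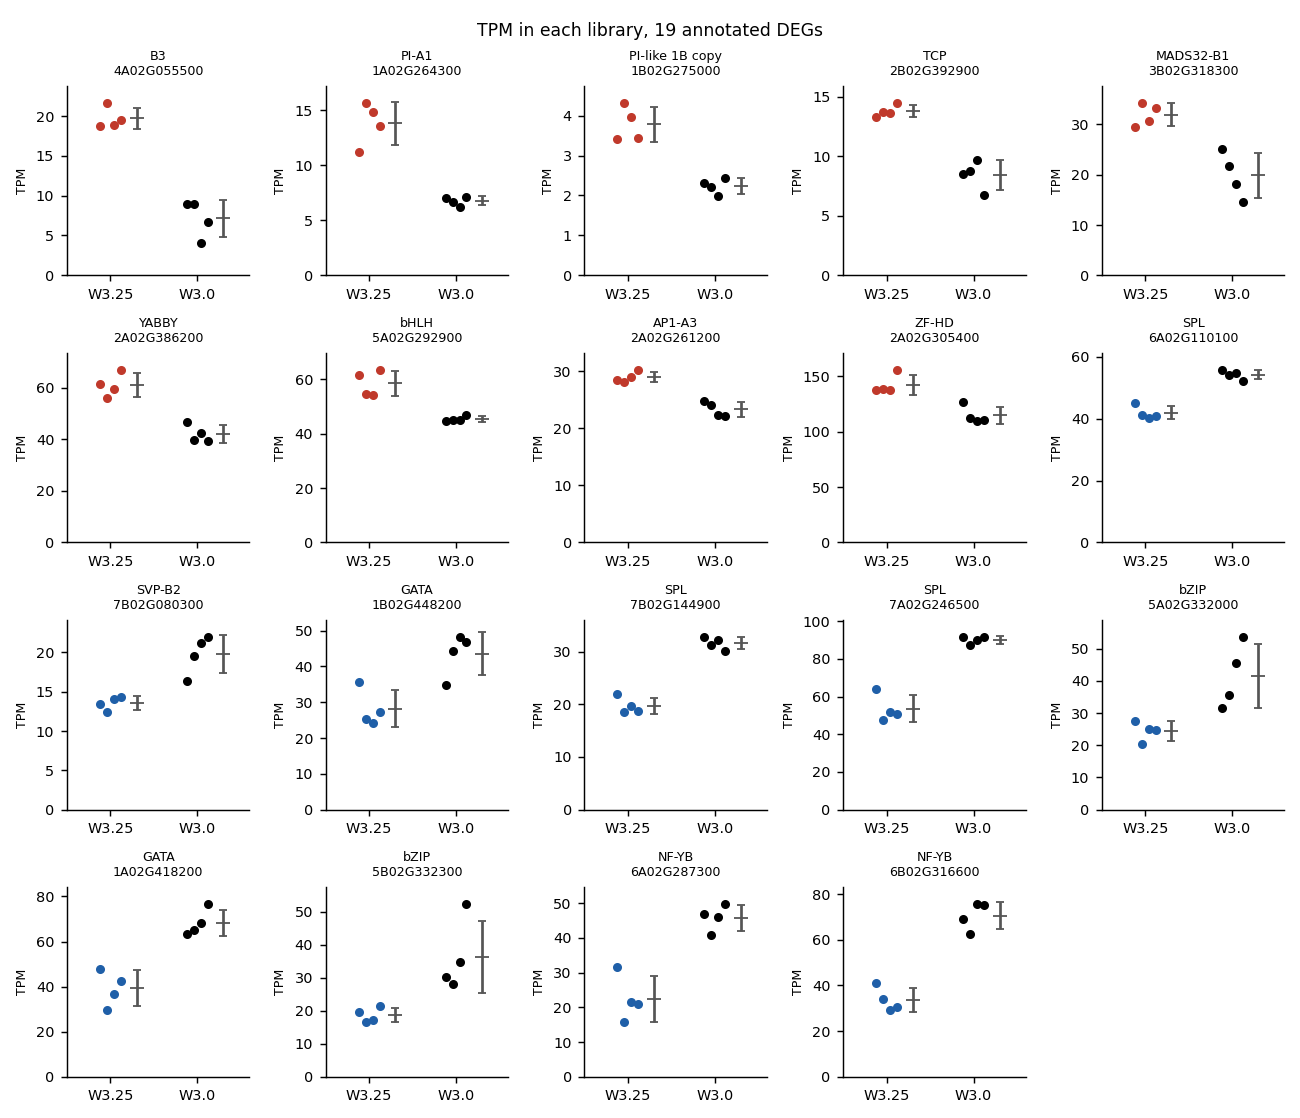
TPM (vertical axes, from 0) in each of the 4 W3.25 libraries (coloured points) and the 4 W3.0 libraries (black points) for the 19 named DEGs, ordered by log2 fold change, with the mean ± SD beside each group of points. Red marks genes higher at W3.25 and blue genes lower at W3.25, and the GATA gene 1B02G448200 is the panel in which the groups overlap, at 35.6 TPM in a W3.25 library and 34.8 TPM in a W3.0 library.

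Among the listed genes, rises outside the MADS-box group came from 5 families, with 1 called member each. The largest was in a B3 gene (TraesCS4A02G055500, chromosome 4A, 46282730 to 46284222), of a family defined by a plant DNA-binding domain that auxin response factors also carry. It stood at 18.8, 21.6, 18.9 and 19.5 TPM at W3.25 and at 8.90, 9.003, 4.01 and 6.70 TPM at W3.0. Every W3.25 library lay above every W3.0 library, and the rise was 2.72-fold (log2 fold change 1.44, SE 0.16, adjusted p = 8.1e-05), called with each library left out. A second B3 gene (TraesCS7A02G417300) was not called (log2 fold change 0.20, SE 0.05, adjusted p = 0.0451). The YABBY gene TraesCS2A02G386200, of a family that sets organ polarity in Arabidopsis, measured 61.5, 56.0, 59.5 and 66.8 TPM at W3.25 and 46.8, 39.5, 42.2 and 39.2 TPM at W3.0. There was no overlap, and it rose by 0.52 on the log2 scale (SE 0.06, adjusted p = 0.00015) whichever library was left out.

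TCP factors govern cell proliferation, and the maize member TB1 restrains branching. Of 5 TCP genes, TraesCS2B02G392900 rose and the other 4 were not called, with log2 fold changes of 0.00 to 0.41. The called one had 13.3, 13.7, 13.6 and 14.5 TPM at W3.25 and 8.53, 8.74, 9.68 and 6.75 TPM at W3.0 (log2 fold change 0.68, SE 0.11, adjusted p = 0.00256), and lost its call without W3.25 replicate 3 or 4 (adjusted p of up to 0.0137). The zinc finger homeodomain (ZF-HD) gene TraesCS2A02G305400 was among the most abundant DEGs, at 138, 138, 137 and 156 TPM at W3.25 and 127, 112, 110 and 111 TPM at W3.0. Its rise was 1.22-fold (log2 fold change 0.29, SE 0.05, adjusted p = 0.00768), and of the 8 fits that leave out a library, it was called only in the one without W3.0 replicate 1 (adjusted p of up to 0.0389 in the others) and not with all 20 libraries in a fit (adjusted p = 0.0702). Among 6 bHLH genes, a family of dimeric DNA-binding factors, TraesCS5A02G292900 rose, with 61.6, 54.7, 54.2 and 63.4 TPM at W3.25 and 44.8, 44.9, 45.0 and 47.0 TPM at W3.0. The rise of 0.34 on the log2 scale (SE 0.06, adjusted p = 0.00207) had no overlap, and the call was lost without W3.25 replicate 4 (adjusted p = 0.0128) and with all 20 libraries in a fit (adjusted p = 0.127).

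Falls among the listed genes were found in 4 further families, NF-YB, SPL, GATA and bZIP. NF-YB proteins are a histone-fold subunit of the trimeric NF-Y complex, which binds CCAAT boxes. Both members of the list fell, to 0.485 (6A) and 0.469 (6B) of their W3.0 level. The 6A gene (TraesCS6A02G287300) had 31.5, 15.7, 21.7 and 20.9 TPM at W3.25 and 46.9, 40.7, 46.0 and 49.6 TPM at W3.0, and the 6B gene (TraesCS6B02G316600) had 41.1, 34.1, 29.2 and 30.5 TPM at W3.25 and 69.1, 62.6, 75.5 and 75.2 TPM at W3.0. In neither did the stages overlap, although W3.25 replicate 1 was the highest W3.25 library for both. The log2 fold changes were -1.04 for the 6A gene (SE 0.14, adjusted p = 0.000307) and -1.09 for the 6B gene (SE 0.10, adjusted p = 1.3e-05), and both were called with each library left out.

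SPL proteins share the SBP domain and include factors that act in phase change and in the architecture of the inflorescence of rice and maize. Of 5 members, 3 fell and 2 were not called. TraesCS7A02G246500 measured 64.1, 47.8, 51.6 and 50.9 TPM at W3.25 and 91.4, 87.2, 90.2 and 91.4 TPM at W3.0 (log2 fold change -0.77, SE 0.07, adjusted p = 9.9e-06). TraesCS7B02G144900 measured 21.9, 18.6, 19.7 and 18.7 TPM at W3.25 and 32.8, 31.3, 32.2 and 30.2 TPM at W3.0 (log2 fold change -0.70, SE 0.06, adjusted p = 3.5e-06). The third, TraesCS6A02G110100, stood at 44.9, 41.4, 40.3 and 41.0 TPM at W3.25 and 55.7, 54.1, 54.9 and 52.2 TPM at W3.0 (log2 fold change -0.39, SE 0.05, adjusted p = 0.000121). The stages were apart in all 3 and every call held with each library left out. The members on 2A (TraesCS2A02G232400) and 2B (TraesCS2B02G250900) had positive log2 fold changes of 0.15 (SE 0.07, adjusted p = 0.372) and 0.13 (SE 0.06, adjusted p = 0.340). Their means were 89.6 ± 3.77 and 128 ± 7.62 TPM at W3.25, against 79.7 ± 10.3 and 115 ± 10.99 TPM at W3.0.

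GATA factors are zinc finger proteins that bind GATA motifs, and 2 of 6 fell. TraesCS1A02G418200 measured 48.0, 29.6, 36.6 and 42.7 TPM at W3.25 and 63.5, 65.0, 68.3 and 76.5 TPM at W3.0, without overlap (log2 fold change -0.82, SE 0.10, adjusted p = 0.00022). TraesCS1B02G448200 had 35.6, 25.3, 24.3 and 27.2 TPM at W3.25 and 34.8, 44.3, 48.1 and 46.7 TPM at W3.0, where W3.25 replicate 1 lay above W3.0 replicate 1. It was the single DEG of the 419 whose stages overlapped (log2 fold change -0.65, SE 0.12, adjusted p = 0.00436), and it kept its call only without W3.0 replicate 1 or W3.25 replicate 1 (adjusted p of up to 0.0243 without one of the others). The other 4 GATA genes had log2 fold changes of -0.62 to -0.06 and were not called.

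Of 5 bZIP genes, which bind DNA as leucine zipper dimers, 2 fell. TraesCS5A02G332000 stood at 27.6, 20.3, 25.1 and 24.7 TPM at W3.25 and at 31.6, 35.7, 45.5 and 53.6 TPM at W3.0 (log2 fold change -0.79, SE 0.14, adjusted p = 0.00394). TraesCS5B02G332300 stood at 19.6, 16.7, 17.3 and 21.3 TPM at W3.25 and at 30.1, 28.2, 34.7 and 52.2 TPM at W3.0 (log2 fold change -0.98, SE 0.15, adjusted p = 0.00184). The W3.0 libraries of both spread widely, with replicate 4 the highest, and no W3.25 library reached them. Both calls were lost without W3.0 replicate 3, W3.25 replicate 2 or W3.25 replicate 3, the first also without W3.25 replicate 4 (edgeR's adjusted p of up to 0.0207) and the second also without W3.25 replicate 1 (DESeq2's adjusted p of up to 0.0268, edgeR's of up to 0.0117).

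The remaining families of the list gave no DEG. The 4 ARF genes, transcription factors of the auxin response, had log2 fold changes of -0.08 to 0.04 at levels of 49.8 to 214 TPM at W3.25. The 2 GRAS genes (-0.05 and 0.03), the 2 ERF genes (-0.06 and 0.04) and the 2 helicase-related genes (-0.09 and 0.03) were as close to 0. The GRF genes, regulators of organ growth, had negative values of -0.18 (TraesCS4A02G255000, adjusted p = 0.0513) and -0.14 (TraesCS7A02G165600, adjusted p = 0.240). The CLV3 copies had log2 fold changes of -0.32 (2A, SE 0.20, adjusted p = 0.572) and -0.71 (2B, SE 0.37, adjusted p = 0.470), where 31 counts at W3.25 and 49 at W3.0 for the 2B copy left a wide error. A single member each of the AP2, Dof, HD-ZIP, HSF, MYB, NAC and Trihelix families was not called either, with values of -0.27 to 0.15.

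The 8 largest rises by fitted fold change were in gene models without a name in the sources used here. Their families were not determined, and MADS-box genes may be among them. None of them passed 0.279 TPM in any W3.0 library. TraesCS5B02G286100 (chromosome 5B, 471852224 to 471860110) had 1.06, 2.08, 1.94 and 1.67 TPM at W3.25, from 538 counts in all, and was at 0 in 3 W3.0 libraries with 1 count in the other. Ratios given here are of counts scaled by library totals, so they differ from the fitted changes. For TraesCS5B02G286100 the ratio was 522 (95% interval 93.4 to 20670, for counting error only). Its fitted log2 fold change was 8.44 (SE 0.47). TraesCS1B02G144800 had 97 counts at W3.25 and 1 at W3.0, a ratio of 94.2 (16.5 to 3758), with 0.341, 0.295, 0.318 and 0.128 TPM at W3.25. TraesCS3B02G142600 had 95 counts at W3.25 and 3 at W3.0, all in replicate 2, a ratio of 30.8 (10.2 to 152). Its 4 W3.25 libraries were close together, at 2.18, 2.24, 1.89 and 2.22 TPM.

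TraesCS7A02G260600 (chromosome 7A, 253427732 to 253433089) was the most abundant of the 8. It measured 2.19, 3.89, 3.68 and 3.46 TPM at W3.25 and 0.0807, 0.162, 0.0177 and 0.0786 TPM at W3.0 (log2 fold change 5.22, SE 0.30, adjusted p = 4.5e-08). TraesCS5A02G286800 had 1.13, 2.07, 1.49 and 1.48 TPM at W3.25 and 0.0392, 0.0701, 0 and 0 TPM at W3.0 (log2 fold change 5.71, SE 0.40, adjusted p = 6.9e-07). TraesCS7B02G158600 had 0.861, 1.97, 1.96 and 1.37 TPM at W3.25 and 0.0559, 0.04999, 0 and 0 TPM at W3.0 (log2 fold change 5.75, SE 0.48, adjusted p = 5.4e-06). In these 3 the lowest W3.25 library exceeded the highest W3.0 library by more than 10 times.

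TraesCS3B02G577000 measured 1.33, 2.04, 1.24 and 1.30 TPM at W3.25 and 0.166, 0.0743, 0.0973 and 0.0270 TPM at W3.0 (log2 fold change 3.95, SE 0.34, adjusted p = 7.5e-06). TraesCS1B02G283600 measured 1.59, 3.51, 2.72 and 1.32 TPM at W3.25 and 0.195, 0.279, 0.137 and 0 TPM at W3.0 (log2 fold change 3.83, SE 0.45, adjusted p = 0.00013). All 8 were called with each library left out. TraesCS1B02G283600 stood apart from the other 7 in its course, with 0.279 ± 0.270 TPM at W3.5 (SD, n = 4 libraries), where the others were at 1.01 to 11.2 TPM and above their W3.25 mean, and its call was lost with all 20 libraries in a fit (DESeq2's adjusted p = 0.0190).

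**Figure D3:**
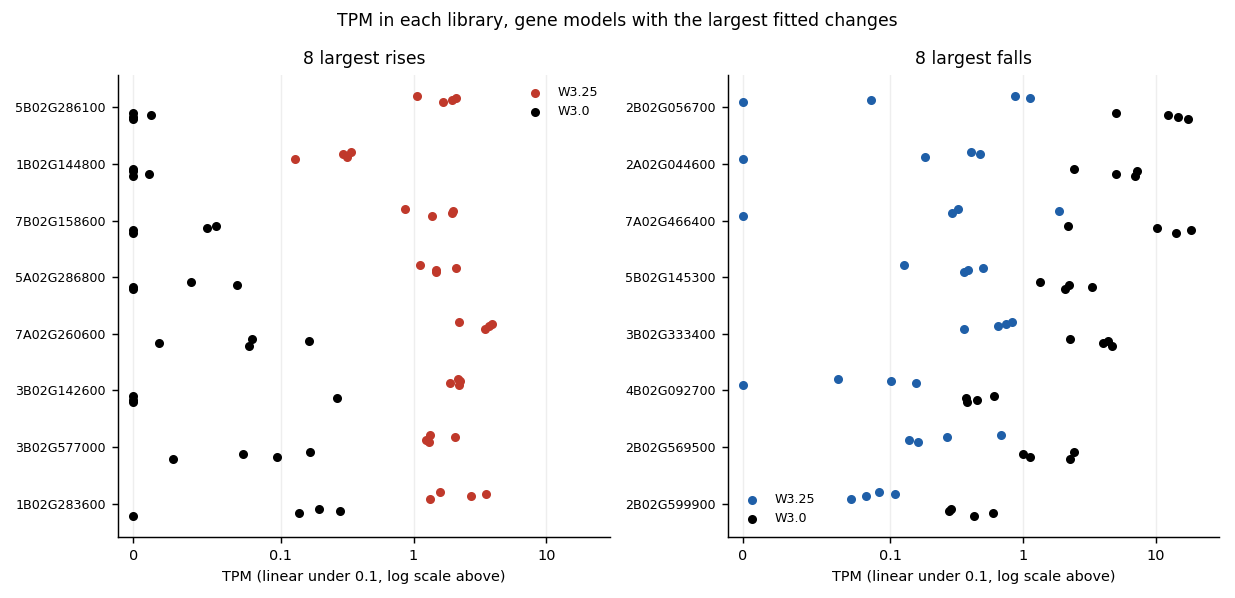
TPM in each library for the 8 largest rises (left, red for W3.25) and the 8 largest falls (right, blue for W3.25), with W3.0 libraries in black and each gene's W3.25 row above its W3.0 row. The horizontal axis is linear under 0.1 TPM and logarithmic above. In none of the 16 genes do the W3.25 and W3.0 libraries overlap, although TraesCS7A02G466400 comes close, at 1.87 TPM in the highest W3.25 library and 2.16 TPM in the lowest W3.0 library.

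The 8 largest falls were likewise without a name, and they rested on fewer counts. TraesCS2B02G056700 (chromosome 2B, 27636110 to 27637107) had 0.867, 1.12, 0.0869 and 0 TPM at W3.25 and 4.98, 12.4, 14.6 and 17.5 TPM at W3.0 (log2 fold change -4.64, SE 0.49, adjusted p = 7.1e-05), a call that was lost without W3.0 replicate 3 or 4, where edgeR's adjusted p was 0.000439 or less and DESeq2's was 0.0136 and 0.0128. TraesCS2A02G044600 (chromosome 2A, 17610327 to 17611274) had 0.405, 0.473, 0.183 and 0 TPM at W3.25 and 2.39, 7.14, 5.01 and 6.89 TPM at W3.0 (log2 fold change -4.33, SE 0.48, adjusted p = 7.9e-05). For both, W3.25 replicate 4 held no read and W3.0 replicate 1 was the lowest W3.0 library. TraesCS3B02G333400 had 0.826, 0.745, 0.644 and 0.358 TPM at W3.25 and 2.24, 4.38, 4.01 and 4.69 TPM at W3.0 (log2 fold change -2.59, SE 0.26, adjusted p = 3.2e-05), and TraesCS5B02G145300 had 0.128, 0.496, 0.384 and 0.360 TPM at W3.25 and 1.34, 2.22, 3.28 and 2.05 TPM at W3.0 (log2 fold change -2.73, SE 0.34, adjusted p = 0.00022). These last 2 and TraesCS2A02G044600 were called with each library left out.

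The other 4 falls lost their call without most of the libraries. TraesCS7A02G466400 (log2 fold change -4.26, SE 0.65, adjusted p = 0.00138) kept it only without W3.0 replicate 1 or W3.25 replicate 2, TraesCS2B02G569500 (-2.41, SE 0.47, adjusted p = 0.00946) only without W3.0 replicate 2 or W3.25 replicate 1, TraesCS2B02G599900 (-2.16, SE 0.40, adjusted p = 0.00622) only without W3.0 replicate 1 or 2, and TraesCS4B02G092700 (-2.43, SE 0.46, adjusted p = 0.00734) only without W3.25 replicate 3. Their adjusted p in edgeR reached 0.0103, 0.0486, 0.0319 and 0.0259 in that order, and in DESeq2 0.0917, 0.0186, 0.107 and 0.0146. Over the 4 libraries of a stage they held 14, 16, 15 and 15 counts at W3.25, against 270, 83, 66 and 79 counts at W3.0. TraesCS2B02G569500 was also not called with library totals in edgeR (adjusted p = 0.0103) or with high-confidence models alone (adjusted p = 0.0115), and TraesCS2B02G599900 and TraesCS4B02G092700 were not called with all 20 libraries in a fit (adjusted p = 0.114 and 0.0792).

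The most abundant DEGs, 4 that rose and 4 that fell, had log2 fold changes of -0.56 to 0.96. Among those that rose, TraesCS5B02G170000 changed most, with 177, 187, 172 and 173 TPM at W3.25 and 120, 108, 73.8 and 58.2 TPM at W3.0 (log2 fold change 0.96, SE 0.14, adjusted p = 0.0012). Its W3.25 libraries were tight and its W3.0 libraries ranged 2-fold. The call held only without W3.0 replicate 1, 2 or 4 (DESeq2's adjusted p of 0.0267 to 0.0489 without one of the others), and not with all 20 libraries in a fit (DESeq2's adjusted p = 0.490). TraesCS1B02G017700 averaged 493 ± 50.8 TPM at W3.25 and 373 ± 39.8 TPM at W3.0 (log2 fold change 0.38, SE 0.07, adjusted p = 0.00655), and TraesCS7A02G453500 averaged 221 ± 13.2 TPM at W3.25 and 179 ± 7.91 TPM at W3.0 (0.28, SE 0.05, adjusted p = 0.00516). Among those that fell, TraesCS7A02G520100 (226, 217, 273 and 242 TPM at W3.25, 338, 376, 336 and 338 TPM at W3.0) fell by 0.56 on the log2 scale (SE 0.06, adjusted p = 7.8e-05) and was called with each library left out and in every alternative fit. TraesCS5A02G573700LC averaged 314 ± 16.9 TPM at W3.25 and 408 ± 21.4 TPM at W3.0 (-0.40, SE 0.05, adjusted p = 0.000401), TraesCS4B02G120900 averaged 402 ± 37.9 TPM at W3.25 and 517 ± 30.0 TPM at W3.0 (-0.39, SE 0.06, adjusted p = 0.00188), and TraesCS5A02G262500 averaged 545 ± 15.5 TPM at W3.25 and 641 ± 41.3 TPM at W3.0 (-0.25, SE 0.05, adjusted p = 0.00662; SD, n = 4 each). With all 20 libraries in a fit, TraesCS1B02G017700, TraesCS7A02G453500, TraesCS5A02G573700LC, TraesCS4B02G120900 and TraesCS5A02G262500 were not called (edgeR's adjusted p = 0.0389, 0.0460, 0.0123, 0.0858 and 0.190). Leaving out single libraries ended the calls of TraesCS1B02G017700 (W3.0 replicates 3 and 4 and W3.25 replicates 1, 3 and 4, adjusted p of up to 0.0322), TraesCS7A02G453500 (W3.0 replicates 2 to 4 and W3.25 replicates 2 to 4, up to 0.0266), TraesCS5A02G262500 (W3.0 replicates 2 and 3 and W3.25 replicates 1 to 4, up to 0.0356) and TraesCS4B02G120900 (W3.25 replicate 3, 0.0125).

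Over the 5 stages the rising and the falling DEGs followed different courses. The median TPM of the 229 rising DEGs was 5.77, 4.48, 4.28, 8.39 and 10.4 in the order W1 to W3.5. That of the 190 falling DEGs was 13.4, 18.4, 20.0, 13.5 and 10.5 in the same order. Among rising DEGs the highest stage mean was at W3.5 in 145, at W1 in 59, at W3.25 in 17 and at W2 in 8. Among falling DEGs it was at W3.0 in 101, at W1 in 54 and at W2 in 35. These counts use the values that called the DEGs and are a description.

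**Figure D4:**
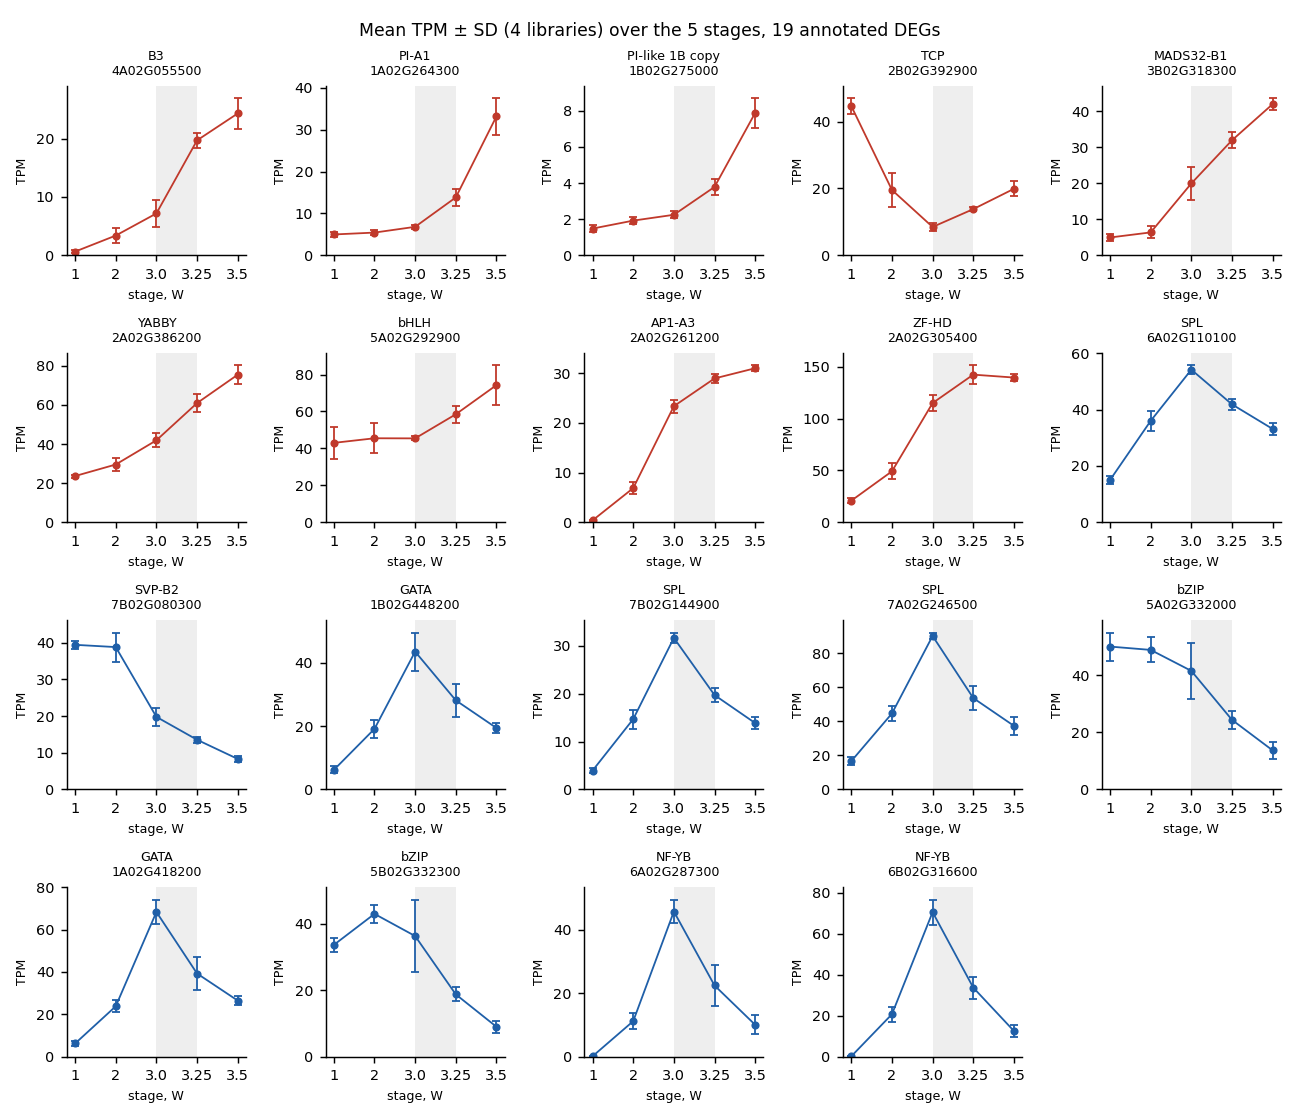
Mean TPM ± SD (n = 4 libraries, vertical axes from 0) over the 5 stages in developmental order for the 19 named DEGs, with the W3.0 to W3.25 interval shaded. Red genes rose and blue genes fell over that interval, and both NF-YB genes, the 3 SPL genes and both GATA genes have their highest mean at W3.0.

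The named genes showed several courses. PI-A1 was at 4.94 ± 0.574, 5.39 ± 0.536 and 6.77 ± 0.413 TPM at W1, W2 and W3.0, then at 13.8 ± 1.95 TPM at W3.25 and 33.2 ± 4.34 TPM at W3.5. The B3 gene TraesCS4A02G055500 had a higher mean at each stage than at the one before, with 0.602 ± 0.309, 3.35 ± 1.33, 7.16 ± 2.35, 19.7 ± 1.33 and 24.3 ± 2.61 TPM in the order W1 to W3.5. AP1-A3, in contrast, had reached 23.4 ± 1.31 TPM by W3.0 and 29.0 ± 0.897 TPM at W3.25. The 6B NF-YB gene was nearly absent at W1 (0.122 ± 0.0916 TPM) and then had 20.7 ± 3.70, 70.6 ± 6.07, 33.7 ± 5.35 and 12.5 ± 2.80 TPM over the later stages, so that W3.0 was its peak. SVP-B2 was lower at each stage after W2, with 39.4 ± 1.16, 38.8 ± 3.96, 19.8 ± 2.45, 13.5 ± 0.868 and 8.31 ± 0.916 TPM over the stages in order. The TCP gene TraesCS2B02G392900 was highest at W1 (44.6 ± 2.35 TPM) and lowest at W3.0 (8.43 ± 1.23 TPM), and its W3.25 level of 13.8 ± 0.510 TPM lay between them (SD, n = 4 libraries throughout).

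The same genes were then read in libraries that the comparison had not used, the 4 at W3.5 against the 4 at W2, by the same tests. This contrast spans the step and called 12944 of 45051 tested models. Of the 226 rising DEGs tested there, 141 were higher at W3.5 (62.4%), where 12.4% of all tested models were, and 35 were lower (15.5%, against 16.4% of all). Of the 188 falling DEGs tested, 142 were lower at W3.5 (75.5%, against 16.4% of all) and 11 were higher (5.85%, against 12.4%). The median log2 fold change, W3.5 minus W2, was 1.05 for the rising DEGs, -0.83 for the falling ones and 0.01 for all tested models. PI-A1 (2.48, adjusted p = 3.4e-12), its 1B copy (1.89, adjusted p = 1.3e-10), MADS32-B1 (2.59, adjusted p = 4.4e-12) and the B3 gene TraesCS4A02G055500 (2.73, adjusted p = 6.5e-10) were higher at W3.5 in edgeR's test, and SVP-B2 (-2.37, adjusted p = 1.4e-13) and the bZIP gene TraesCS5B02G332300 (-2.42, adjusted p = 7.9e-12) were lower. Among the named DEGs with their highest stage mean at W3.0, the 6A NF-YB gene had a log2 fold change of -0.31 (adjusted p = 0.196), the GATA genes TraesCS1A02G418200 and TraesCS1B02G448200 had 0.00 (adjusted p = 0.981) and -0.13 (adjusted p = 0.366), and none of these was called. The SPL gene TraesCS7B02G144900 was not called either (-0.24, adjusted p = 0.0333), while the 6B NF-YB gene (-0.88, adjusted p = 0.000238) and the SPL genes TraesCS7A02G246500 (-0.41, adjusted p = 0.000703) and TraesCS6A02G110100 (-0.27, adjusted p = 0.00262) were lower at W3.5. The TCP gene TraesCS2B02G392900, lowest at W3.0, was not called (-0.12, adjusted p = 0.523).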

How the data were processed

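RNA was sequenced as single reads of 100 bp on 2 lanes, with 4 biological replicates per stage. After trimming with Fastp, the authors aligned reads (STAR 2.7.5) to the A, B and unanchored sequences of the IWGSC wheat assembly, and deposited raw read counts per gene model from featureCounts 2.0.0. Per the file header, reads of mapping quality 40 or more were counted over the whole gene span, introns included, and without strand, so reads of overlapping or antisense genes cannot be told apart. A read over more than 1 model was not counted. Of 269428 models, 79047 of the D genome held no counts and were left out.

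The 4 W3.25 and 4 W3.0 libraries were fitted alone in R 4.3.3, with edgeR 4.0.16 (TMM, quasi-likelihood test) and DESeq2 1.42.0 (Wald test), after filterByExpr at minimums of 10 counts and 15 counts in total. Both tests were two-sided with Benjamini-Hochberg adjustment at 0.01. DESeq2's adjusted p was undefined for 5 models, which were not called. The SE was obtained as the size of the log2 fold change over the root of F in edgeR. TPM took the gene span for length, and depth of 22980323 counts or more per library sets its precision. Intervals of count ratios are exact binomial ones on counts summed over the 4 libraries of a stage, so they leave out the spread between libraries. Reads carry no molecular identifiers, so copies of the same molecule cannot be told apart. The principal components used log2 CPM (prior count 2). The pipeline was tested on simulated data. Python 3.11.15 with matplotlib 3.10.9 drew the figures.

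Genes were named by rule: the 8 largest fitted rises and 8 largest falls without overlap of libraries and with at least 10 counts in each library of the higher stage, the 4 rising and 4 falling DEGs of highest mean TPM, and the 66 genes that the study's text gives with an identifier or the readable part of its network labels. Gene members, lists and tests were chosen with earlier results of these data known. Lists by keyword could not be applied, since the reference table used here does not hold these identifiers. The alternatives varied libraries, tool, test, normalization, filter, models, threshold, fold minimum and prior count, added the replicate number, or left out each library in turn.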

Additional observations from a re-analysis of the deposited data

Results flagged for a closer look

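In 114 groups of 4 libraries (the W3.25 and the W3.0 TPM of each of the 55 named DEGs, those of neighbouring pairs included, with the library totals and first component scores of each stage), 11 had a library that lay far from the other 3, where chance would give about 1 in 20. In TraesCS5B02G286100, W3.0 replicate 2 held 0.0123 TPM, in TraesCS1B02G144800, W3.0 replicate 3 held 0.0109 TPM, and in TraesCS3B02G142600, W3.0 replicate 2 held 0.263 TPM, with the other 3 libraries at 0 in each case. A group with 3 libraries at 0 and 1 above it is flagged whatever the value, so the rate of 1 in 20 does not apply to these. TraesCS3B02G142600 also had a low W3.25 replicate 3, at 1.89 TPM with the others at 2.18 to 2.24. TraesCS3B02G577000 had a high W3.25 replicate 2, at 2.04 TPM with the others at 1.24 to 1.33. The ZF-HD gene TraesCS2A02G305400 had a high library at both stages, W3.25 replicate 4 at 155.6 TPM (others 137 to 138) and W3.0 replicate 1 at 126.5 TPM (others 109.8 to 112). W3.0 replicate 2 was high in TraesCS7A02G520100, at 376 TPM (others 336 to 338), and in TraesCS7A02G010400, at 44.1 TPM (others 36.9 to 38.0). W3.0 replicate 4 was high in the bHLH gene TraesCS5A02G292900, at 47.0 TPM (others 44.8 to 45.0), and in TraesCS7A02G175300, at 8.64 TPM (others 7.60 to 7.68).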

How the results depend on the processing

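The 419 DEGs between W3.25 and W3.0 became 666 with edgeR's exact test in place of the quasi-likelihood test, 635 with no filter on low counts, 914 at an adjusted p of at most 0.05, 671 with DESeq2 alone and 135 with a 2-fold minimum as well. Leaving out 1 library gave 217 to 473. The other settings gave 369 to 436, among them 397 with all 20 libraries in the fit, of which 309 were among the 419, and 423 with library totals in edgeR (257 higher and 166 lower, against 229 and 190 after TMM). The W3.5 against W2 count stayed within 1.5 times its value of 12944 in every setting run (10668 to 11599 with a library left out). The first principal component took 28.8% of the variance with a prior count of 0.5 and 21.5% over all gene models with a read, each with the same exact p.

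Replicate numbers are shared by the stages, but same-numbered libraries correlated at 0.0013 to 0.127 in their deviations from the stage means, against -0.0926 to 0.136 for other pairs of numbers. In these data 4 of 8 libraries correlated best with their own number, while the highest correlation was between different numbers. No label says that a number marks a shared batch, and whether it does was not settled. With the replicate number as a block, 382 DEGs were called, 287 of them among the 419, and for W3.5 against W2 9003 DEGs, with 3515 higher in place of 5572. Of the 55 named DEGs, 13 were not called with the block (among them MADS32-B1, the 1B PISTILLATA copy, the TCP gene TraesCS2B02G392900 and the GATA gene TraesCS1B02G448200, with adjusted p = 0.0290, 0.0101, 0.0161 and 0.159 in DESeq2), 15 with all 20 libraries in the fit, 3 with library totals and 1 each with the 1 CPM filter and with high-confidence models alone, and 0 with edgeR's exact test, DESeq2's size factors in edgeR or no filter. Either tool alone and the looser threshold cannot lose a DEG by construction. Without 1 library, 4 (W3.0 replicate 1) to 20 (W3.25 replicate 3) were not called. No named DEG changed direction in these settings, while uncalled genes near 0 did when a library was left out, such as the ERF gene TraesCS3B02G042400 (0.016 without W3.0 replicate 4, against -0.06). Depth limits the models with few counts. Among the 8 largest falls, TraesCS2A02G044600 had 10 counts in all at W3.25. The 4 falls that lost their call without most of the libraries had 14 to 16 counts there.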

Other observations

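DEGs next to one another on a chromosome were listed after the values were seen. There were 7 pairs of consecutive DEGs whose starts lay within 100 kb, 13 genes in all, and in each pair both members moved the same way. The share of such pairs among all tested models was not computed, so the count is a description only. The largest changes were on chromosome 3A, where TraesCS3A02G690500LC (729226574 to 729227228, log2 fold change 3.64), TraesCS3A02G690600LC (729227304 to 729229431, 2.37) and TraesCS3A02G508000 (729311396 to 729313899, 1.001) all rose, in coordinates of the deposited annotation. TraesCS5A02G359500LC (0.82) and TraesCS5A02G359600LC (0.98) both rose on 5A, and TraesCS2A02G184300LC (-0.95) and TraesCS2A02G184400LC (-0.95) both fell on 2A. The low-confidence models of the 3A and the 5A pair lie on the same strand, with starts 730 and 882 bp apart. Whether such models are separate transcripts or pieces of a single one was not tested.

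For 17 rising DEGs the highest stage mean was at W3.25, so that a lower mean at W3.5 follows from how they were picked. The difference between W3.25 and W3.5 was not tested, and it was small in some. The ZF-HD gene TraesCS2A02G305400 had 142 ± 8.90 TPM at W3.25 and 139.5 ± 3.38 TPM at W3.5. TraesCS1B02G283600 was one of them, at 2.29 ± 1.02 TPM at W3.25, against 0.153 ± 0.117 TPM at W3.0 and 0.279 ± 0.270 TPM at W3.5. TraesCS5B02G170000 was another and more abundant, at 177 ± 7.10 TPM at W3.25, against 90.0 ± 29.0 TPM at W3.0 and 112 ± 21.7 TPM at W3.5 (SD, n = 4 libraries).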
